A study of Mus musculus with 8 samples.

Results

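The genes described here are 46 mouse genes of the Wnt pathway, chosen by name from the pathway's ligands, receptors and regulators, out of 24594 genes listed in the count table. They comprised 12 Wnt ligands, 2 genes of ligand secretion, 6 Frizzled receptors, 4 coreceptors, 6 genes of the R-spondin axis, 6 genes of the intracellular relay, 4 TCF/LEF transcription factors, 3 secreted inhibitors and 3 feedback or target genes. RNA was sequenced from a pair of luminal cell fractions sorted from the virgin mammary gland of adult wild type C57BL/6J mice without treatment. One fraction was c-Kit high and holds luminal progenitors (LP), and the other was c-Kit low and holds differentiated luminal cells, called mature below. Each fraction had 4 libraries, sorted on EpCAM, CD49f, cKit and CD14, and a picogram amount of RNA per library was amplified as cDNA before sequencing. The labels do not say whether libraries came from separate animals or from pools, so the p-values below measure the spread between these libraries. Each LP library shares a sample number with a mature library. The main test treats the libraries as unpaired, and a fit with this pairing is given as an alternative.

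Wnt proteins are secreted lipid-modified ligands. The acyltransferase Porcn attaches the lipid, the carrier Wls takes the ligand to the cell surface, and there it binds a Frizzled receptor. In the β-catenin branch the coreceptors Lrp5 and Lrp6 join the complex, Dishevelled proteins inhibit the complex of Axin, Apc and Gsk3b that marks β-catenin for destruction, and β-catenin acts on genes through TCF/LEF factors. In the other branch, ligands such as Wnt5a signal through Ror receptors without β-catenin. In the mammary gland, Wnt4 is known as a signal that hormone-sensing luminal cells send to their neighbours under progesterone.

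Library totals lay between 4410049 and 7791593 counts on genes. Expression is given as CPM, the counts scaled to a common library size with TMM factors in edgeR. Of the LP markers Kit, Cd14, Elf5, Aldh1a3 and Csn3, 4 of 5 were higher in LP in edgeR's quasi-likelihood test. Aldh1a3 did not pass this test (adjusted p = 0.0512). The summed level of the 5 was 16171 to 26255 CPM in LP against 343 to 1639 CPM in mature libraries. Cd14 alone had 12142 to 18322 CPM in LP. Kit and Cd14 encode markers named for the sort. The paper splits these fractions by c-Kit, so the Kit difference was set by the sort. The part of CD14 in that split is not clear, so the Cd14 difference is no independent check. Elf5 and Csn3 were not used in the sort. All 8 markers of hormone-sensing mature cells were higher in mature libraries, with sums of 720 to 1510 CPM in LP and 5051 to 7400 CPM in mature. Mature replicate 3 held the highest LP marker sum and the lowest hormone-sensing marker sum of the mature libraries. Markers of other cell types were low. The 9 basal markers summed to 15.9 to 79.4 CPM with the maximum in mature replicate 3. The 4 endothelial markers summed to at most 8.48 CPM and 5 immune markers to at most 3.16 CPM, with Kdr and Cd3e at 0 in every library. The 7 fibroblast markers summed to 7.49 to 41.7 CPM in LP, to 138 and 179 CPM in mature replicates 1 and 2, and to 28.3 and 27.1 CPM in mature replicates 3 and 4. Most of the sums in mature replicates 1 and 2 came from Dcn alone, with 132 and 154 CPM.

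LP and mature libraries differed in 9 of the 46 Wnt genes. The ligand Wnt5b, the R-spondin receptors Lgr5 and Lgr6, the relay gene Dvl2 and the transcription factor Tcf7l2 were higher in LP. The ligands Wnt4 and Wnt5a, the ligand carrier Wls and the receptor Ror2 were higher in mature cells. The filter on low counts in edgeR kept 31 of the 46 genes, and calls were made at an adjusted p under 0.05. The share called among all 12816 tested genes was 24.7%, with 10.9% higher in LP and 13.8% higher in mature, against 9 of the 31 tested Wnt genes, 5 of them higher in LP and 4 in mature. The ranges of the LP and mature libraries did not overlap for 9 of the 31, beside 29.5% of all tested genes. These shares are near the background, so the counts alone show nothing particular to the Wnt genes. The median log2 fold change (LP over mature) of the 31 was 0.17 and that of all tested genes was -2.85e-05. In sorted bulk RNA, fewer cells of one kind and less RNA per cell cannot be told apart.

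**Figure D1:**
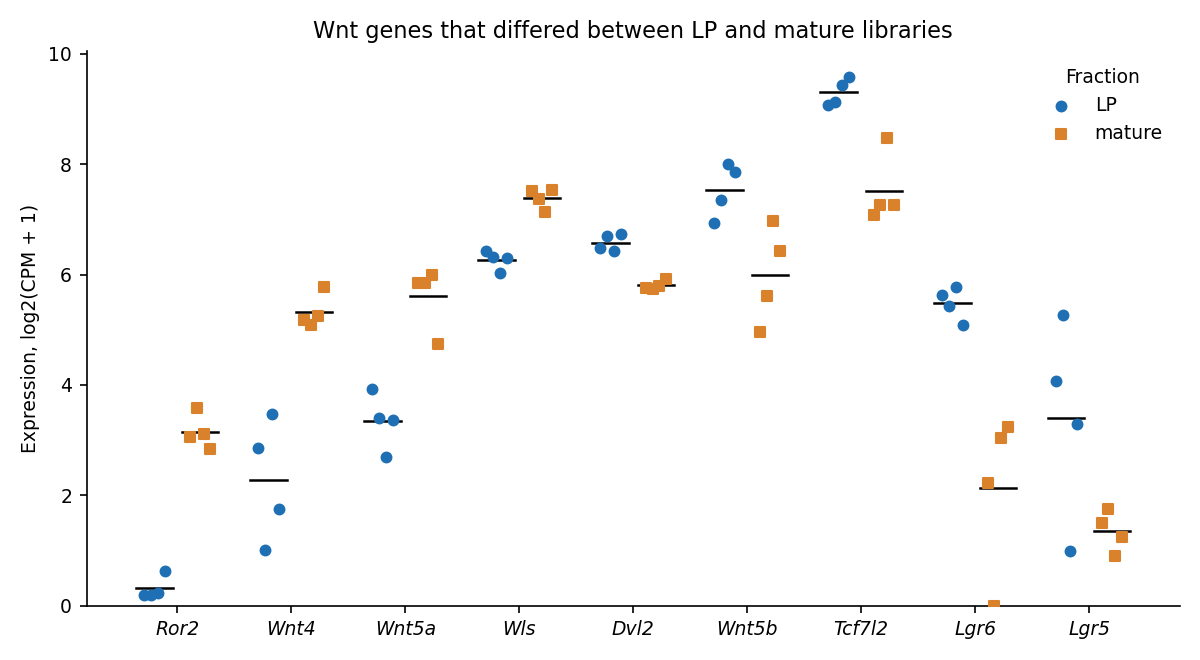
Expression of the 9 Wnt genes past the threshold, as log2(CPM + 1) on the vertical axis. Each point is a library, circles are the 4 LP and squares the 4 mature libraries, and horizontal lines are fraction means. LP and mature points overlap for Wnt5b and Lgr5 and for none of the other 7 genes.

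The ligands that differed went in both directions. Wnt5b was the ligand with the highest level per length in both fractions and was 2.68-fold higher on average in LP, whereas Wnt4 and Wnt5a were 8.04-fold and 5.21-fold higher in mature libraries. Of the 12 ligands, 5 passed the filter, 1 was higher in LP, 2 were higher in mature and 2 did not pass the test. Among all tested genes 24.7% were called, and counts from so few ligands show no pattern of the ligands as a group.

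Wnt4 (chr4:137277635-137299501, mm10) had 6.24, 1.01, 10.1 and 2.36 CPM in LP replicates 1 to 4 and 35.0, 33.1, 37.1 and 53.5 CPM in mature replicates 1 to 4. Every mature library lay above every LP library, and LP replicate 3 was the highest of its fraction. The log2 fold change was -3.02 (SE 0.566, adjusted p = 0.00376, edgeR quasi-likelihood test). Wnt5a (chr14:28504543-28527448) had 14.2, 9.63, 5.48 and 9.29 CPM in LP and 57.0, 56.5, 62.4 and 25.6 CPM in mature. The groups did not overlap, and mature replicate 4 had less than the other mature libraries. Its log2 fold change was -2.38 (SE 0.357, adjusted p = 0.00127, edgeR). The fibroblast marker Dcn, a matrix proteoglycan gene, had 132 and 154 CPM in mature replicates 1 and 2 but 14.1 and 20.6 CPM in mature replicates 3 and 4. Among the other fibroblast markers, Pdgfra had 16.3 CPM in mature replicate 2 and at most 2.74 CPM in the other mature libraries. Lum, Col3a1, Col1a2, Col1a1 and Pdgfrb had at most 5.52 CPM in any mature library. The part of fibroblast RNA in the Wnt5a level was not tested.

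Wnt5b (chr6:119432531-119544824) encodes a close relative of Wnt5a. It had 122, 162, 255 and 233 CPM in LP and 30.2, 47.8, 125 and 84.8 CPM in mature. Mature replicate 3 exceeded LP replicate 1, so the groups overlapped, and replicate 3 was the highest library in each fraction. The log2 fold change was 1.42 (SE 0.401, adjusted p = 0.0254, edgeR). The call was lost in 5 of 18 alternative fits, each with fewer libraries, where the adjusted p reached 0.106. Each LP library lay above the mature library of its number. With the replicate number as a block, the log2 fold change was 1.56 with an adjusted p of 0.00224 (edgeR). Fbxl14, a gene on the opposite strand within the Wnt5b locus, shares no exon base with it and had 4.002 ± 1.103 CPM in LP and 6.02 ± 3.31 CPM in mature (SD, n = 4 each).

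RefSeq lists 3 transcript starts of Wnt5b with a promoter window. The 250 bases before the innermost start (chr6:119449387-119449636, GRCm38.p6, minus strand) are shown because they alone, among the windows of the genes that differed, hold CTTTGA, a form of the TCF/LEF core, given in capitals. The core begins at position -71 relative to that start.
Wnt5b: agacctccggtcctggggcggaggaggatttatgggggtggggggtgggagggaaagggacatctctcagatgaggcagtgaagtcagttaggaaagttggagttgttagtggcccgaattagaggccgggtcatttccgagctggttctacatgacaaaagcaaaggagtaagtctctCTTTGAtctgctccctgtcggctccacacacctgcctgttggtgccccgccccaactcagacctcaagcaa
CTTTGA was searched on both strands in the 250 bases before each start. Other forms of the TCF/LEF core were not searched, so a window without CTTTGA may hold one of them. It was in 13.8% of all 32851 windows of the table and in 17.1% of the 41 windows that 32 of the Wnt genes had, 7 windows in 7 genes. Of the 7 genes that differed and had a window, Wnt5b alone held a match. A match is a run of letters in this window and no evidence of binding, and the counts do not show which Wnt5b start was used.

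Wnt7b, another ligand, had 7.19 to 33.4 CPM in LP and 21.3 to 36.3 CPM in mature (log2 fold change -0.72, SE 0.405, adjusted p = 0.224, edgeR), with overlapping groups. Wnt11 had at most 2.08 CPM in LP and 1.51 to 6.19 CPM in mature (log2 fold change -1.95, SE 1.08, adjusted p = 0.213). The filter removed the other 7 ligands from the test. Wnt9a reached 7.14 CPM in LP replicate 3 and 4.64 CPM in mature replicate 1, but 0 to 3.19 CPM elsewhere. Wnt2b reached 1.25 CPM, Wnt10b 0.289, Wnt2 0.151 and Wnt7a 0.145 CPM. Wnt6 and Wnt10a had 0 counts in all 8 libraries, as did the inhibitor Dkk1. A count of 0 among the 51484087 counts of all libraries allows a mean level over all 8 libraries of up to 0.0583 CPM. This takes 3 counts over the totals without TMM factors, with counting error only. A single fraction holds fewer counts, so the level in it may be higher.

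Divided by exon length, the levels of the 12 ligands could be set against each other. Wnt5b made up 86.5, 95.3, 88.7 and 92.1% of the summed ligand CPM per kb in LP replicates 1 to 4, and 30.5, 47.4, 65.9 and 57.7% in mature replicates 1 to 4. LP libraries all lay above mature libraries in this share, with means of 90.6 ± 3.83% and 50.4 ± 15.3% (SD, n = 4 each). Wnt4 took 1.502 ± 1.204% in LP and 19.6 ± 4.91% in mature, and Wnt5a 1.81 ± 1.201% and 13.9 ± 6.54%. Wnt7b, whose own level did not pass the test, took 4.56 ± 1.75% and 13.1 ± 4.67%. The Wnt5b level per kb was 25.2, 49.6, 137 and 73.8 times that of Wnt5a in LP, and 1.56, 2.50, 5.90 and 9.76 times in mature. Without the length correction the mean Wnt5b share was 83.5% in LP and 34.5% in mature, and the Wnt5a share 4.86% and 26.4%. These shares are a description with no test.

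**Figure D2:**
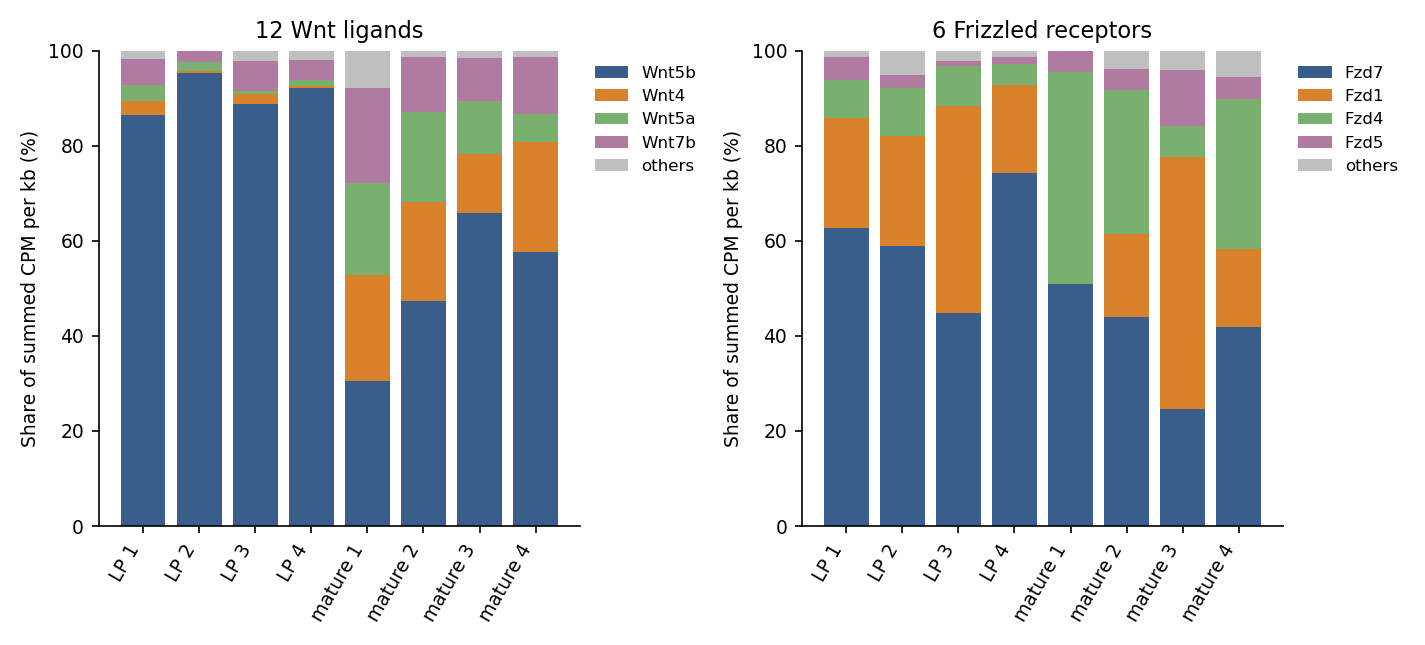
Share of the summed CPM per kb of exon (vertical axis, %) of each of the 12 Wnt ligands (left) and 6 Frizzled receptors (right) in each library. Stacked colours are genes and grey is the sum of the genes not named, and Wnt5b takes 86.5 to 95.3% of the ligand sum in LP libraries against 30.5 to 65.9% in mature libraries.

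Secretion of the ligands was represented by Wls and Porcn. Wls (chr3:159839650-159938666), the carrier of Wnt ligands to the cell surface, had 84.8, 79.1, 64.1 and 77.6 CPM in LP and 181, 164, 139 and 185 CPM in mature. All mature libraries lay above all LP libraries, and the spread within a fraction was small. The mean was 2.19-fold higher in mature, with a log2 fold change of -1.13 (SE 0.157, adjusted p = 0.00088, edgeR). Porcn had 0 to 9.87 CPM in LP and 2.60 to 15.5 CPM in mature (log2 fold change -0.63, SE 0.943, adjusted p = 0.668), with overlapping groups.

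None of the 4 tested Frizzled genes passed the threshold in the edgeR quasi-likelihood test, where 2 had an unadjusted p under 0.05. Both of these, Fzd7 and Fzd4, passed in DESeq2 and in the edgeR likelihood ratio test. Fzd7, a receptor of the β-catenin branch, had 37.6, 28.9, 41.7 and 41.5 CPM in LP and 28.7, 22.3, 13.4 and 24.1 CPM in mature. LP libraries lay above mature libraries, by a small margin between LP replicate 2 and mature replicate 1 (log2 fold change 0.76, SE 0.261, adjusted p = 0.0572, edgeR). Fzd4 had 7.11, 7.33, 11.5 and 3.61 CPM in LP and 37.3, 22.9, 5.20 and 27.0 CPM in mature. Mature replicate 3 lay within the LP range and the other mature libraries above it (log2 fold change -1.65, SE 0.550, adjusted p = 0.0507, edgeR). Without mature replicate 3 the adjusted p for Fzd4 was 0.00645 with a log2 fold change of -1.95. Mature replicate 3 is the mature library with the highest LP marker sum, and the part of that in the Fzd4 level was not tested.

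Fzd1 had 9.57 to 37.5 CPM in LP and 0 to 26.9 CPM in mature, with the highest value of each fraction in replicate 3 (adjusted p = 0.642, edgeR). Fzd5 had 1.39 to 4.50 CPM in LP and 3.41 to 9.82 CPM in mature (adjusted p = 0.196). Fzd2 and Fzd8 were left out by the filter and reached 1.73 and 3.92 CPM. Per kb of exon, Fzd7 made up 60.2 ± 12.2% of the 6 Frizzled genes in LP and 40.4 ± 11.2% in mature, and Fzd4 7.69 ± 2.40% and 28.3 ± 15.9% (SD, n = 4 each). The summed Frizzled level was 14.2 ± 4.31 CPM per kb in LP and 12.1 ± 0.657 CPM per kb in mature, and these overlapped. The summed ligand level was 80.1 ± 26.0 and 50.5 ± 16.2 CPM per kb, also with overlap.

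Ror2, a receptor tyrosine kinase that binds Wnt5a, showed the largest fold change of the Wnt genes in the test. Ror2 (chr13:53109317-53286124) had 0.145, 0.144, 0.166 and 0.555 CPM in LP, or 1, 1, 1 and 4 counts, and 7.31, 11.03, 7.65 and 6.18 CPM in mature. LP libraries held at most 4 counts, and every mature library lay above every LP library. The log2 fold change was -4.87 (SE 0.649, adjusted p = 0.000742, edgeR), a size that depends on the few LP counts. The filter on low counts kept Ror2 through its mature libraries alone. Its related receptor Ror1 had 2.61, 10.1, 2.82 and 5.97 CPM in LP and 1.55, 1.05, 1.01 and 5.58 CPM in mature (log2 fold change 1.21, SE 0.726, adjusted p = 0.256, edgeR), with overlap through mature replicate 4.

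The 250 bases before the Ror2 start (chr13:53286125-53286374, GRCm38.p6, minus strand) are shown because this gene had the largest change.
Ror2: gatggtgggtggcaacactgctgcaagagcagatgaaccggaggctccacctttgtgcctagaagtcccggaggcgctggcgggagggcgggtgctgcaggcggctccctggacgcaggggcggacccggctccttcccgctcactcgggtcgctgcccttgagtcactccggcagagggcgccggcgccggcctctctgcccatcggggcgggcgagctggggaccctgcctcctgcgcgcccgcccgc
This window was 73.2% G and C with 24 CpG pairs, where the median of all windows was 52.4% with 6 CpG pairs, and it held no CTTTGA. The outer, middle and inner Wnt5b windows were 75.2, 53.2 and 55.6% G and C, with 35, 4 and 7 CpG pairs.

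The coreceptors of the β-catenin branch did not pass the test. Lrp6 had 65.8 to 88.9 CPM in LP and 77.6 to 103 CPM in mature (log2 fold change -0.16, SE 0.165, adjusted p = 0.511, edgeR). Lrp5 had 11.1 to 27.0 CPM in LP and 8.29 to 19.5 CPM in mature (log2 fold change 0.36, SE 0.360, adjusted p = 0.503). Both overlapped between fractions.

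In the R-spondin axis, secreted R-spondins bind the receptors Lgr4, Lgr5 and Lgr6 and thereby remove the ubiquitin ligases Znrf3 and Rnf43, which otherwise clear Frizzled receptors from the cell surface. The 3 receptors had higher means in LP, and 2 of them passed the test, by which 24.7% of all tested genes were called. Lgr6 (chr1:134983300-135105374) had 48.8, 42.0, 54.1 and 33.0 CPM in LP and 3.66, 0, 7.22 and 8.44 CPM in mature. LP lay well above mature in every library, by 9.21-fold on average. The 0 in mature replicate 2 was found in the library with the fewest counts, where it allows up to 0.788 CPM (3 counts). The log2 fold change was 3.15 (SE 0.644, adjusted p = 0.00576, edgeR). Lgr5 (chr10:115450314-115587780), known as a stem cell marker in several epithelia, had 15.8, 37.5, 0.996 and 8.74 CPM in LP and 1.83, 2.36, 0.866 and 1.36 CPM in mature. LP replicate 3 was within the mature range and the other LP libraries above it, with LP replicate 2 the highest by far. The log2 fold change was 3.31 (SE 0.872, adjusted p = 0.0189, edgeR), and the call was lost in 4 alternative fits. Without LP replicate 2 it was 2.42 with an adjusted p of 0.0747.

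Lgr4 was the most evenly present of the 3 receptors. It had 40.2, 40.1, 42.7 and 58.3 CPM in LP and 18.3, 22.9, 33.1 and 38.9 CPM in mature. The groups did not overlap, although mature replicate 4 came close to LP replicate 2 (log2 fold change 0.68, SE 0.265, adjusted p = 0.0869, edgeR). The adjusted p was 0.0431 with the replicate number as a block and 0.0403 without mature replicate 4. Per kb of exon, Lgr4 and Lgr6 had 7.70 and 6.49 CPM in LP, while Lgr5 had 1.54. In mature libraries Lgr4 had 4.80 CPM per kb, Lgr6 0.705 and Lgr5 0.156. Rspo1, the ligand of these receptors, varied more within a fraction than between them, with 1.60, 0, 11.3 and 4.99 CPM in LP and 0, 0, 14.3 and 1.36 CPM in mature (adjusted p = 0.952, edgeR). Znrf3 had 26.2 to 32.7 CPM in LP and 17.6 to 36.5 CPM in mature (adjusted p = 0.496), and Rnf43 11.5 to 26.7 and 12.1 to 28.5 CPM (adjusted p = 0.841).

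**Figure D3:**
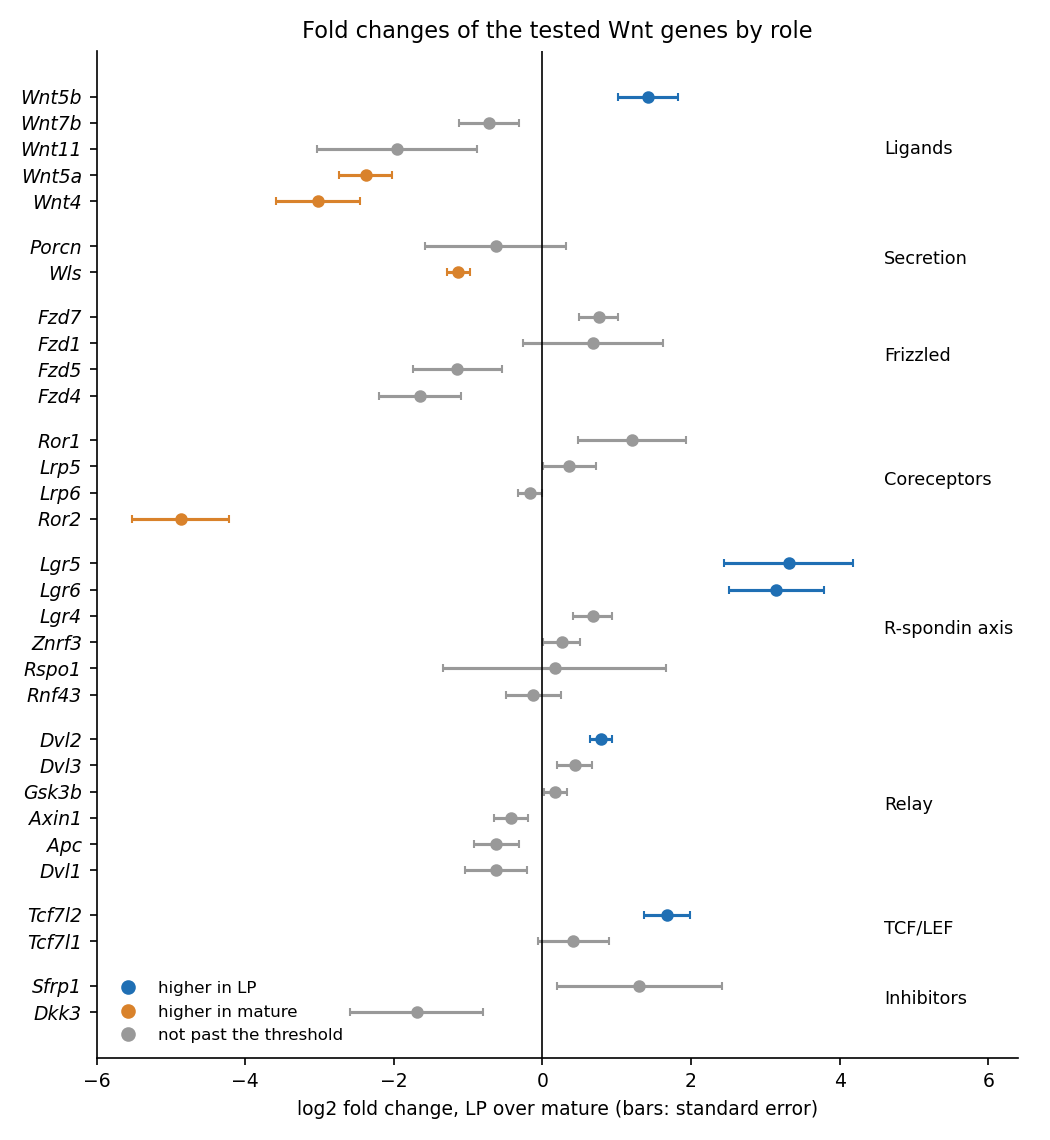
Log2 fold change of LP over mature (horizontal axis) for the 31 tested Wnt genes, grouped by role. Points are edgeR estimates with standard errors, blue and orange mark the 5 genes higher in LP and the 4 higher in mature, and grey marks the 22 genes that did not pass the threshold.

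The intracellular relay showed 1 change among 6 genes, beside 24.7% called among all tested genes. Dvl2 (chr11:70000592-70010109), a Dishevelled protein that passes the signal on from Frizzled, had 88.0, 102, 84.7 and 105 CPM in LP and 53.0, 52.3, 54.6 and 59.8 CPM in mature. The libraries of each fraction were tightly grouped and did not overlap. The mean was 1.73-fold higher in LP (log2 fold change 0.79, SE 0.148, adjusted p = 0.00371, edgeR). Its paralogs did not pass the test. Dvl3 had 49.6 to 66.9 CPM in LP and 26.3 to 57.9 CPM in mature (log2 fold change 0.44, SE 0.235, adjusted p = 0.204), and Dvl1 5.08 to 7.91 and 6.35 to 16.3 CPM (log2 fold change -0.63, SE 0.418, adjusted p = 0.307). The destruction complex genes all overlapped between fractions. Axin1 had 18.9 to 30.5 CPM in LP and 28.5 to 40.4 CPM in mature (adjusted p = 0.198), Apc 17.9 to 49.6 and 39.9 to 67.5 CPM (adjusted p = 0.163), and Gsk3b 309 to 383 and 251 to 326 CPM (adjusted p = 0.442, edgeR).

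Tcf7l2, a TCF/LEF factor that carries β-catenin to genes, had the highest level per length of the 4 TCF/LEF genes in both fractions. The gene (chr19:55741797-55933659) had 541, 562, 688 and 764 CPM in LP and 135, 153, 355 and 153 CPM in mature. No mature library reached the LP range, and mature replicate 3 stood far above the other mature libraries. The mean was 3.21-fold higher in LP (log2 fold change 1.68, SE 0.308, adjusted p = 0.00343, edgeR). Mature replicate 3 also had the highest mature level of Kit, the gene of the sorting marker, with 179 CPM against 41.2 to 73.5 CPM in the other mature libraries, and its part in the Tcf7l2 level was not tested. Tcf7l1, which mostly acts as a repressor, had 8.13 to 29.4 CPM in LP and 5.52 to 14.9 CPM in mature (adjusted p = 0.564, edgeR). Tcf7 and Lef1 were left out by the filter. Tcf7 reached 2.49 CPM, and Lef1 lay between 0.452 and 0.863 CPM in all libraries. Per kb of exon, Tcf7l2 had 72.8 CPM in LP and 22.7 in mature, and Tcf7l1 3.82 and 2.84.

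The outer promoter window of Tcf7l2 (chr19:55741560-55741809, GRCm38.p6, plus strand) is shown as that of the most abundant TCF/LEF gene.
Tcf7l2: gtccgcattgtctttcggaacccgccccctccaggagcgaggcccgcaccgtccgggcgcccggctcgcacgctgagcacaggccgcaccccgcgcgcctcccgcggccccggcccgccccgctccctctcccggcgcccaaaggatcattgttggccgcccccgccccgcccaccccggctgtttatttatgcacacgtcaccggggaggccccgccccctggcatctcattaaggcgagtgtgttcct
It was 72.8% G and C with 30 CpG pairs and held no CTTTGA, and neither did the window before the inner Tcf7l2 start.

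The secreted inhibitors and the feedback genes were low. Sfrp1, which binds and sequesters ligands, had 2.61 to 9.49 CPM in LP and 0 to 5.05 CPM in mature (log2 fold change 1.31, SE 1.11, adjusted p = 0.426, edgeR). Dkk3 had 0.145 to 4.98 CPM in LP and 1.97 to 9.46 CPM in mature (log2 fold change -1.69, SE 0.890, adjusted p = 0.193). Axin2, the classical target of β-catenin and TCF, had 1.02 CPM in LP replicate 1, 2.60 CPM in mature replicate 3, 0.151 CPM in mature replicate 4 and 0 in the other 5 libraries. Nkd1, another feedback inhibitor, had a single count in LP replicate 3. Procr, a surface receptor known as a Wnt target in mammary cells, reached 1.05 CPM in mature replicate 4. None of these 3 genes was tested.

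Around these genes, a list of 65 other pathway genes was examined, of which 35 passed the filter. LP had the higher level in 6 of them and mature cells in 5, which is 31.4% called beside the 24.7% of all tested genes. These counts moved with single libraries. Without LP replicate 4 the total was 7, with 3 higher in LP, and without mature replicate 3 there were 9 higher in LP. Those higher in mature fell to 3 without LP replicate 1, 2 or 3 or mature replicate 1 or 2. Sfrp2, a secreted inhibitor, showed the largest change toward LP, with 10.2, 8.34, 4.81 and 16.8 CPM in LP and 0.141, 0, 2.45 and 1.36 CPM in mature (log2 fold change 3.26, SE 0.885, adjusted p = 0.0216, edgeR). The mature libraries held 1, 0, 17 and 9 counts of Sfrp2, and the size of its change depends on these few counts. The filter on low counts kept Sfrp2 through its LP libraries. Ctnnb1, the β-catenin gene, had 209, 189, 166 and 222 CPM in LP and 104, 96.4, 122 and 152 CPM in mature, without overlap (log2 fold change 0.73, SE 0.180, adjusted p = 0.014). Frat1, an inhibitor of Gsk3, the corepressors Tle4 and Ctbp1 and the adhesion receptor gene Cd44 were also higher in LP, with log2 fold changes of 1.84, 1.18, 0.78 and 1.10. Their adjusted p-values were 0.0189, 0.0131, 0.0459 and 0.0094 in the edgeR test.

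In mature libraries the receptor gene Fzd10 was higher, with 3.92, 3.88, 1.66 and 0 CPM in LP and 23.6, 18.4, 16.3 and 14.0 CPM in mature (log2 fold change -2.92, SE 0.770, adjusted p = 0.0188, edgeR). Of the Frizzled genes examined here, Fzd10 alone passed the main edgeR quasi-likelihood test. The kinase gene Csnk1e, the β-catenin ubiquitin ligase subunit Btrc, the destruction complex partner Amer1 and the target gene Myc were higher in mature as well, with log2 fold changes of -0.79, -0.83, -0.75 and -0.68. Their adjusted p-values were 0.0148, 0.00361, 0.0353 and 0.0357 in the edgeR test. The groups overlapped for Myc. The 7 other Wnt ligands and the 3 other R-spondins were all left out by the filter.

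**Figure D4:**
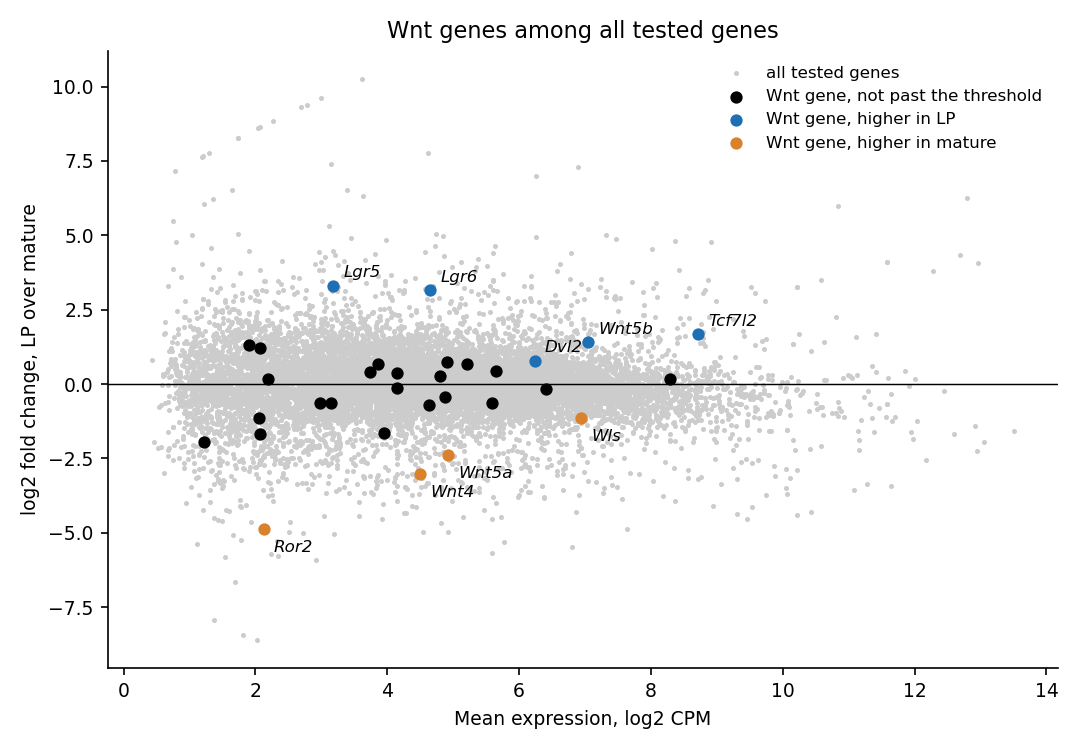
Log2 fold change of LP over mature (vertical axis) against mean log2 CPM (horizontal axis) for all 12816 tested genes in grey. Larger points are the 31 tested Wnt genes, with names on the 9 past the threshold, and the Wnt genes spread over both directions, from -4.87 for Ror2 to 3.31 for Lgr5.

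For a single gene the exact two-sided permutation test on log2(CPM + 1), with 4 libraries against 4, can give no p below 0.0286. It gave this smallest p for 7 of the 9 genes, 0.0571 for Wnt5b and 0.114 for Lgr5.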

How the data were processed

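Counts per gene of 8 libraries (4 LP, 4 mature) were analysed. The authors removed adapters, mapped reads onto mm10 with Bowtie2, which does not split reads across introns, and deposited raw counts without normalization. The submitters' processing notes give cutadapt 4.2 and Bowtie2 2.3.5.1, while the study's methods give another Bowtie2 version and none for cutadapt. The counting program, its annotation and its use of strand are not given in the sources used here, and a gene's reads cannot be told apart from those of an overlapping gene. Those notes also list hg19. The study's methods state 3 biological replicates per condition, and all 4 libraries per fraction were used.

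Of 24594 Entrez IDs, 24570 matched RefSeq (GRCm38.p6), which gave symbols and positions. Exon lengths came from GENCODE M21. Promoter windows are from RefSeq, and 32 of the 46 genes had one. Counts were tested with edgeR 4.0.16 in R 4.3.3 (limma 3.58.1): TMM factors, filterByExpr by fraction, quasi-likelihood F-test, Benjamini-Hochberg adjustment over 12816 genes, threshold 0.05. The SE is the absolute log2 fold change divided by the square root of F. The common biological coefficient of variation was 0.393. The code was tested on simulated data. Tables and figures used Python 3.11.15.

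All genes past the threshold are named with every library, the others by ranges. Alternatives were RLE factors, DESeq2 1.42.0, the edgeR likelihood ratio test, a filter of none or of 10 counts in each library, a replicate block, a threshold of 0.01, and libraries or same-numbered pairs left out. The shares without length correction were added after seeing the data. The genes, lists and tests were chosen with earlier results of these data known. An item of the immune marker list is not reported here.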

Additional observations from a re-analysis of the deposited data

Results flagged for a closer look

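Among the 62 groups of 4 libraries of the tested Wnt genes, 9 held a library whose gap to its nearest neighbour exceeded Dixon's 95% limit as a share of the group's range. For normally distributed values chance flags about 1 in 20 groups, or 3.1 here. CPM values, above all those from few counts, need not be so distributed, so 9 against 3.1 does not measure an excess. In mature replicate 3, Tcf7l2 was at 355 CPM against 135 to 153 CPM in the other mature libraries, Fzd5 at 9.82 CPM against 3.41 to 4.07, and Rspo1 at 14.3 CPM against 0 to 1.36. In mature replicate 4, Wnt5a was at 25.6 CPM against 56.5 to 62.4 in the others, and Ror1 at 5.58 CPM against 1.01 to 1.55. In LP replicate 3, Fzd1 was at 37.5 CPM against 9.57 to 12.8, and Gsk3b at 383 CPM against 309 to 320 CPM. In LP replicate 4, Lgr4 was at 58.3 CPM against 40.1 to 42.7, and Ror2 at 0.555 CPM, or 4 counts, against 1 count in each other LP library. Tcf7l2, Wnt5a and Ror2 passed the threshold with these libraries and in every fit without one of them.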

How the results depend on the processing

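Of the 9 Wnt genes past the threshold, 7 passed under each alternative that tested them. Wnt5b and Lgr5 lost the call at an adjusted p under 0.01 and in some fits with libraries left out. None of the 9 changed sign. Of the 22 others, Fzd4, Fzd7 and Lgr4 passed under an alternative, and 3 changed sign (Rspo1, Rnf43 and Tcf7l1). DESeq2 and the likelihood ratio test called 11 Wnt genes each, adding Fzd4 and Fzd7. They called 3791 and 3736 of all genes, beside 3161 in the main fit. The replicate number as a block gave 10, adding Lgr4, and 3027 of all genes. The labels give each LP library and the mature library of its number a shared sample number, without saying what it marks. Deviations of same-numbered libraries correlated by 0.107, 0.0594, 0.141 and 0.084 (mean 0.0978, against -0.0325 for different numbers), not above 0.1 in every pair, so the fit without the block was kept. All same-number values lay above the different-number mean, so the cut at 0.1 does not show that the pairs are unrelated. At an adjusted p under 0.01, 7 Wnt genes were called, 3 of them higher in LP, with 1564 of all genes (643 higher in LP, 921 in mature) and 2 of the other pathway genes, 1 in each direction. With no filter, 3 other pathway genes were higher in mature. With libraries or same-numbered pairs left out, calls ranged from 7 to 10 for the Wnt genes (3 to 6 in LP, 4 to 5 in mature), from 2 to 13 for the other pathway genes (1 to 9 in LP, 1 to 4 in mature), and from 1615 to 3414 for all genes (736 to 1668 in LP, 879 to 1746 in mature). All genes fell to 1808 and 1615 without pairs 1 and 2, and the other pathway genes to 7 without LP replicate 4 and to 4, 2 and 6 without pairs 1, 2 and 4. These fits held fewer libraries, and the cause of the other differences was not tested. In a single library 3 counts correspond to 0.416 CPM (LP replicate 4) to 0.788 CPM (mature replicate 2), which limits what can be said of the untested genes.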

Other observations

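Replicate 3 was the highest library of both fractions for 4 of the 31 tested Wnt genes, namely Wnt5b, Fzd1, Rspo1 and Axin1. This was 12.9% of them, and 9.22% of all 12816 tested genes showed the same. These genes were found after the values had been seen, and no test was made.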
